A study of Mus musculus with 5 samples.

Results

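Cyclic AMP is made from ATP by adenylyl cyclases and broken down by phosphodiesterases. It releases the catalytic subunits of protein kinase A (PKA) from their regulatory subunits, and A-kinase anchoring proteins hold PKA, and often a phosphodiesterase, at set places in the cell. In the nucleus PKA acts on CREB and its relatives, with the CRTC proteins as coactivators. In T cells cyclic AMP restrains signalling from the T cell receptor, and regulatory T (Treg) cells are known for a high cyclic AMP content and for repression of the phosphodiesterase gene Pde3b by Foxp3, the factor that defines them. The genes of this machinery were taken by symbol from the table of counts: phosphodiesterases (Pde and a digit), adenylyl cyclases (Adcy and a digit), PKA subunits (Prkac and Prkar), anchoring proteins (Akap and a digit), and Creb1, Crem, Crtc1, Crtc2 and Crtc3. They numbered 63 of the 24417 genes with a symbol, with 26 phosphodiesterase symbols, 10 cyclases, 6 PKA subunits, 16 anchoring proteins and 5 CREB factors or coactivators. The match is by name only, so it takes in Pde4dip (myomegalin, a centrosome and Golgi scaffold), Pde6d (a carrier of prenylated proteins) and Pde12 (a mitochondrial RNA enzyme), which are not cyclic nucleotide phosphodiesterases, and the enzymes Pde5a, Pde6 and Pde9a, which act on cyclic GMP.

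The cells came from the colon lamina propria, the connective tissue layer under the gut epithelium, of mice that carry a Foxp3DTR-GFP allele together with a loxp-Thy1.1-STOP-loxp-GFP allele, as in all 5 libraries. The 2 Treg libraries hold cells that were Foxp3-DTR-GFP+. The 3 reporter-null libraries hold Thy1.1+ cells called Foxp3 reporter-null, from the allele with a stop signal before GFP. Foxp3 is disrupted in that allele and Thy1.1 is its reporter, so Foxp3 and Thy1 were read as a check of the labels. The labels give no age, sex, treatment or animal for any library, and the description of reporter-null replicate 1 joins the numbers 1 and 4, so p-values cover only the spread among libraries and that spread may be technical. Foxp3 stood at 764 and 770.0 CPM in Treg replicates 1 and 2, and at 75.7, 80.7 and 81.3 CPM in reporter-null replicates 1, 2 and 3, and Thy1 at 18.8 to 21.4 against 269.3 to 300.5 CPM, so both followed the labels. CPM are counts scaled to a common library size. Libraries held 17671245 to 22396204 counts. Of 9 T cell markers 6 were in the table, and their summed level was 5100 to 5695 CPM in every library, although Cd4 was 1.98-fold higher (adjusted p = 0.00796) and Cd2 2.58-fold lower (adjusted p = 0.00186) in reporter-null cells. Epithelial markers, 12 of 12 in the table, summed to 348 and 52.6 CPM in Treg cells and to 41.0, 1545 and 43.8 CPM for reporter-null cells, so Treg replicate 1 and reporter-null replicate 2 stood apart. Of 7 gamma-delta T cell markers 3 were in the table, and they summed to 10.77 to 10.97 CPM for Treg and 422 to 625 CPM for reporter-null cells, with 5830411N06Rik and Blk making up nearly the whole. B and plasma cell markers summed to 419 to 1409 and 382 to 854 CPM. The part of these other markers in the results that follow was not tested.

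Transcripts of the phosphodiesterases Pde3b, Pde5a and Pde7a, the catalytic PKA subunit Prkacb, the cyclase Adcy7, the anchoring protein Akap1 and the scaffold Pde4dip rose in reporter-null cells, and those of Pde2a and Crem fell. Of the 63 members 55 passed the filter on low counts and were tested, and 9 of these changed at an adjusted p under 0.05, 7 higher and 2 lower. Over all 14164 genes tested, 8.79% changed, 4.07% higher and 4.72% lower. Tested members had a median log2 fold change of 0.23, and all tested genes one of 0.02, where every fold change is reporter-null minus Treg. The 3 reporter-null libraries lay above both Treg libraries for 25 of the 55 and below both for 10, and over all genes tested these shares were 20.3% and 20.5%, or 40.8% in either direction. The adjusted p comes from the quasi-likelihood test of edgeR with Benjamini-Hochberg adjustment over all genes tested. With 1 library left out, 3 members were called higher (no Treg replicate 1), 4 (no Treg replicate 2), 4 (no reporter-null replicate 1) or 11 (no reporter-null replicate 2), and in the first 3 of these cases 1 was called lower. Without reporter-null replicate 3, Pde4dip and Akap1 lost their calls and Prkaca gained one, among the members followed singly. In bulk samples, fewer cells that express a gene and less RNA per cell cannot be told apart.

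**Figure D1:**
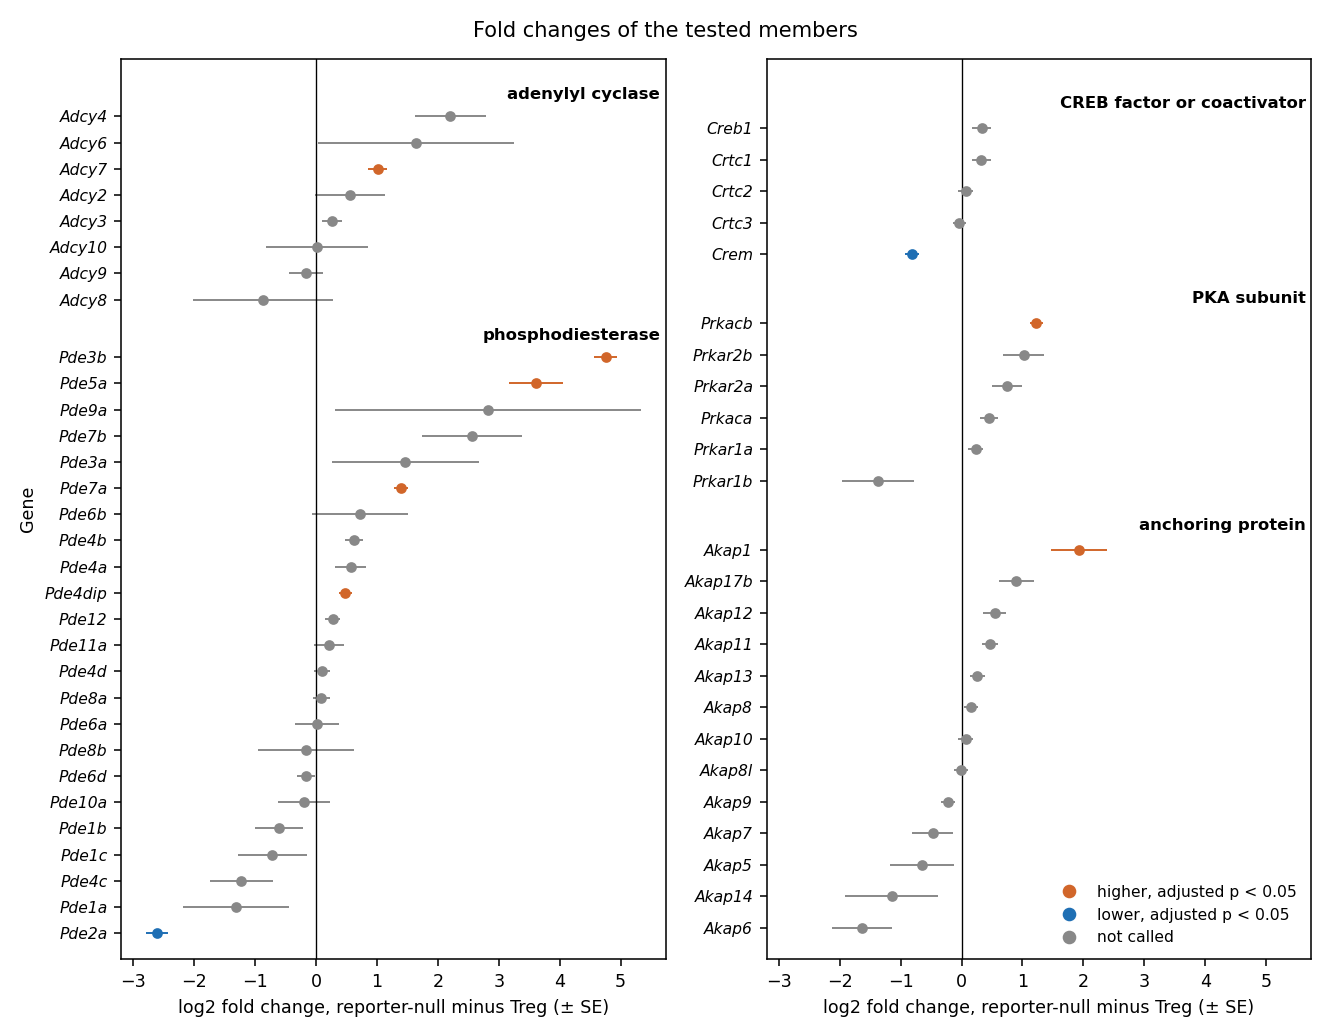
Log2 fold change (reporter-null minus Treg, x axis) of the 55 tested members, with the standard error as bars, grouped by role. Orange points are the 7 members that rose, blue points the 2 that fell and grey points the 46 that were not called, and Pde3b at 4.76 and Pde2a at -2.61 are the ends of the range.

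Cyclic AMP is removed by phosphodiesterases, and this class held the members with the greatest change in each direction. Pde3b encodes an enzyme that hydrolyses cyclic AMP and is inhibited by cyclic GMP. It had 188 and 164 counts in the Treg libraries and 4084, 5339 and 5446 counts in reporter-null replicates 1, 2 and 3, or 10.2 and 7.58 CPM against 221, 256 and 242 CPM. The groups were far apart, and within each group the libraries lay close together. The difference was 27.0-fold (log2 fold change 4.76, SE 0.189, adjusted p = 0.000112). Pde2a encodes an enzyme that hydrolyses both cyclic nucleotides and is stimulated by cyclic GMP. It moved the other way, with 184 and 208 CPM for Treg, and 32.7, 38.4 and 25.4 CPM for reporter-null libraries. Every reporter-null library lay below both Treg libraries, and Pde2a fell from 196 ± 16.7 CPM (SD, n = 2) to 32.2 ± 6.53 CPM (SD, n = 3), a 6.10-fold difference (-2.61, SE 0.183, adjusted p = 0.000706). Both genes kept their call without any single library.

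Pde7a and Pde5a rose with Pde3b. Pde7a encodes a phosphodiesterase specific for cyclic AMP with high affinity for it. Its level was 47.3 and 47.6 CPM for Treg, and 118, 135 and 121 CPM for reporter-null libraries, a 2.62-fold difference (log2 fold change 1.39, SE 0.120, adjusted p = 0.00137) that remained called without any single library. Pde5a encodes a phosphodiesterase specific for cyclic GMP, the target of sildenafil. It was close to the floor in Treg cells, with 17 and 18 counts (0.923 and 0.832 CPM), and stood at 6.66, 10.7 and 14.9 CPM for reporter-null libraries. The reporter-null libraries differed among themselves by 2.24 times, yet the lowest was well above both Treg libraries. The log2 fold change was 3.61 (SE 0.449, adjusted p = 0.00476), and the call failed without either Treg library (adjusted p = 0.0607 and 0.0636 for replicates 1 and 2), and its adjusted p spanned 1.82e-14 to 0.0924 over 15 alternatives.

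**Figure D2:**
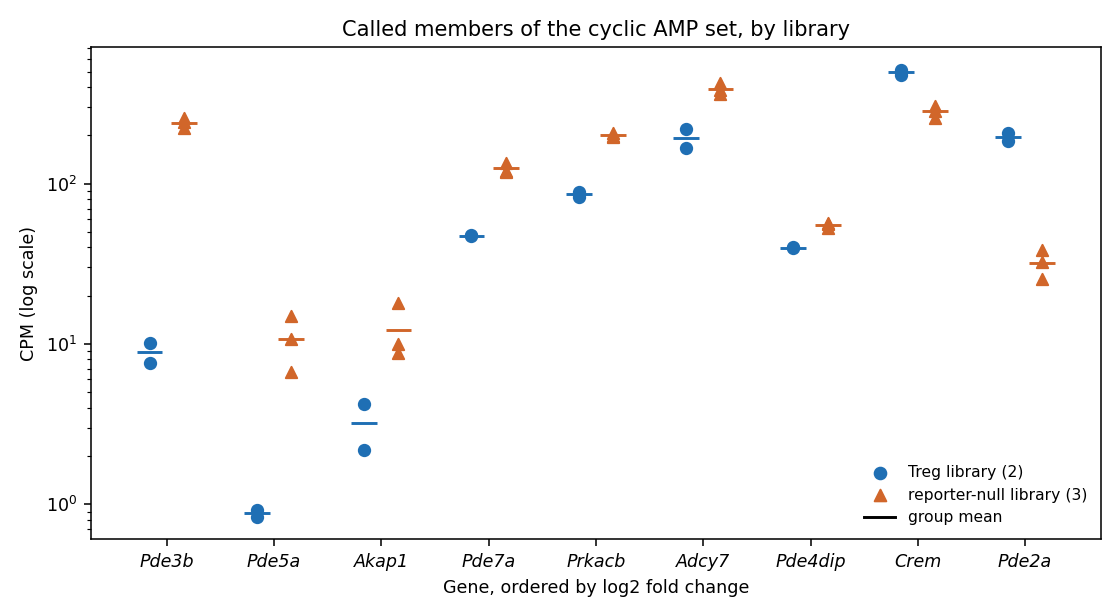
CPM (log axis) of the 9 called members in each library, with circles for the 2 Treg libraries, triangles for the 3 reporter-null libraries and a line at each group mean. In each of the 9 genes the groups do not overlap, as in 40.8% of all genes tested, and Pde3b and Pde5a show the greatest distance between them.

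The PDE4 enzymes are specific for cyclic AMP and take part in T cell activation, and 4 of 4 were tested and none called by edgeR, with 2 at an unadjusted p under 0.05, and 1 called by DESeq2 and 1 by limma-voom. Pde4b had the highest level. It stood at 507 and 515 CPM for Treg, and 723, 916 and 716 CPM for reporter-null libraries, with no overlap (log2 fold change 0.62, SE 0.150, adjusted p = 0.0517). It passed without reporter-null replicate 2 (log2 fold change 0.48, adjusted p = 0.0354), and its adjusted p spanned 0.000613 to 0.296 over 15 alternatives. Pde4d stood at 240.01 ± 39.9 CPM for Treg and 257 ± 14.0 CPM for reporter-null cells (0.10, SE 0.136, adjusted p = 0.750), and its groups overlapped. Pde4a was 7.38 and 11.6 against 15.5, 13.3 and 13.5 CPM (0.57, SE 0.252, adjusted p = 0.245). Pde4c, at 3.42 and 2.64 against 1.35, 0.816 and 1.69 CPM, had the opposite sign (-1.23, SE 0.515, adjusted p = 0.219). Pde8a, another enzyme specific for cyclic AMP, differed little between libraries, at 27.3 and 25.0 against 28.5, 27.4 and 27.3 CPM (0.08, SE 0.137, adjusted p = 0.788). Pde7b, named after its values were seen, had 2.39 and 3.98 CPM for Treg, and 15.8, 6.38 and 34.1 CPM for reporter-null libraries, a spread of 5.35 times within the latter group (2.55, SE 0.821, adjusted p = 0.157). Without reporter-null replicate 2, its lowest reporter-null library, Pde7b passed (2.95, adjusted p = 0.0026, range 1.26e-15 to 0.534 over 15 alternatives).

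Levels of different genes can be compared only per transcript length, and CPM were therefore divided by the merged exon length of each gene in kilobases, from GENCODE M21. Among the 26 phosphodiesterase symbols Pde4b ranked 1 in both groups, with 48.4 CPM per kb in Treg and 74.3 CPM per kb in reporter-null cells. Pde3b moved from rank 12 to rank 2 (0.976 to 26.3 CPM per kb), and Pde2a from rank 2 to rank 8 (31.9 to 5.23 CPM per kb). Over the 16 enzymes known to hydrolyse cyclic AMP, Pde2a made up 24.8% and 27.99% of the summed level per length in the Treg libraries and 3.58%, 3.56% and 2.72% in the reporter-null libraries. Pde3b made up 0.925% and 0.689% against 16.4%, 15.99% and 17.5%. The share of Pde7a was 5.04% and 5.09% against 10.3%, 9.92% and 10.2%, and that of Pde4b was 39.6% and 40.4% against 46.2%, 49.3% and 44.5%. None of these 4 shares overlapped between the groups, nor did those of Pde8a, Pde7b, Pde1b, Pde4c, Pde1c and Pde1a. In CPM the groups did not overlap for 40.8% of all genes tested. The shares in a library make up a whole, so a lower share of some enzymes raises those of others. The summed level itself was 121.06 and 120.75 CPM per kb in the Treg libraries and 148, 176 and 152 CPM per kb in the reporter-null libraries. These shares describe transcripts, were given no test, and depend on the annotation used for length.

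**Figure D3:**
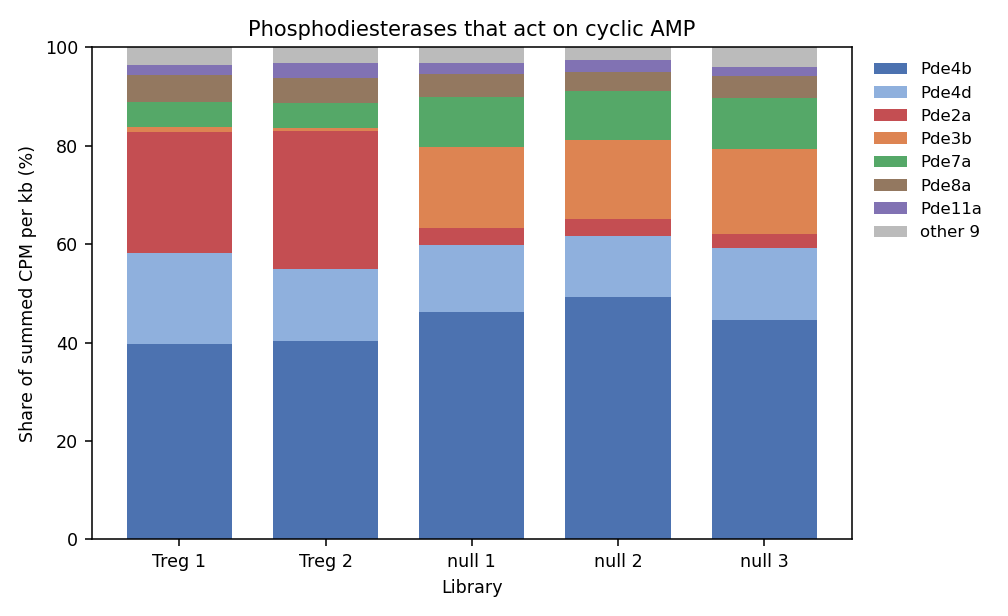
Share (%, y axis) of each enzyme in the summed CPM per kilobase of the 16 phosphodiesterases known to hydrolyse cyclic AMP, in each library (x axis, null for reporter-null). Pde2a fills 24.8% and 27.99% of the Treg bars and under 3.6% of each reporter-null bar, and Pde3b fills 15.99% to 17.5% of the reporter-null bars and under 1% of the Treg bars.

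Of the other phosphodiesterase symbols Pde4dip alone was called by edgeR, and it encodes the scaffold and no enzyme. It rose from 39.5 and 40.0 CPM in the Treg libraries to 57.2, 53.3 and 56.0 CPM for reporter-null libraries. The change was 1.40-fold (log2 fold change 0.48, SE 0.110, adjusted p = 0.0428) and was not called without either Treg library (adjusted p = 0.218 and 0.17 for replicates 1 and 2), reporter-null replicates 1 (0.217) or 3 (0.07), and its adjusted p spanned 0.000718 to 0.218 over 15 alternatives. Pde4dip was called in 6 of those 15 alternatives, and its call was lost also with limma-voom and with no filter on low counts. The carrier Pde6d was 41.7 ± 0.991 CPM for Treg and 37.1 ± 5.17 CPM for reporter-null cells, and the mitochondrial enzyme Pde12 was 44.2 ± 2.44 and 53.4 ± 3.69 CPM, neither called. Pde11a, Pde1b, Pde10a, Pde6a, Pde8b and Pde1c had group means from 1.02 to 18.1 CPM and adjusted p from 0.438 to 0.986. Pde1a and Pde6b had 45 and 54 counts over all libraries and were not called (adjusted p = 0.442 and 0.674).

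A further few members stood high in a single library. Pde9a, specific for cyclic GMP, had 12.3 CPM in reporter-null replicate 2 and at most 0.760 CPM in every other library (log2 fold change 2.82, SE 2.51, adjusted p = 0.611). Adcy6 had 3.12 CPM there and at most 0.652 CPM elsewhere, and Pde3a 2.54 and at most 0.756 CPM. Adcy1 had 0.528 CPM there, from 11 counts, and at most 0.231 CPM elsewhere. These 4 were the members at more than 2 times every other library in that library with at least 10 counts there. Of the 3 tested, none was called by edgeR, DESeq2 or limma-voom, and 0 had an unadjusted p under 0.05. Reporter-null replicate 2 also had the highest epithelial marker sum, 1545 CPM against 41.0 to 348 CPM in the other libraries, with Krt8 at 426 and Car1 at 277 CPM, and the highest sum of 7 fibroblast markers, 110.8 CPM against 10.2 to 42.6 CPM. Without that library Pde3a gave a log2 fold change of 0.17. The rule was set for reporter-null replicate 2 only. Pde7b and Pde6c met the same limits in reporter-null replicate 3, where the epithelial marker sum was 43.8 CPM. Pde7b had 34.1 CPM there and at most 15.8 CPM elsewhere, and Pde6c 0.445 CPM, from 10 counts, and at most 0.0543 CPM. The part of epithelial or fibroblast RNA in these values was not tested.

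**Figure D4:**
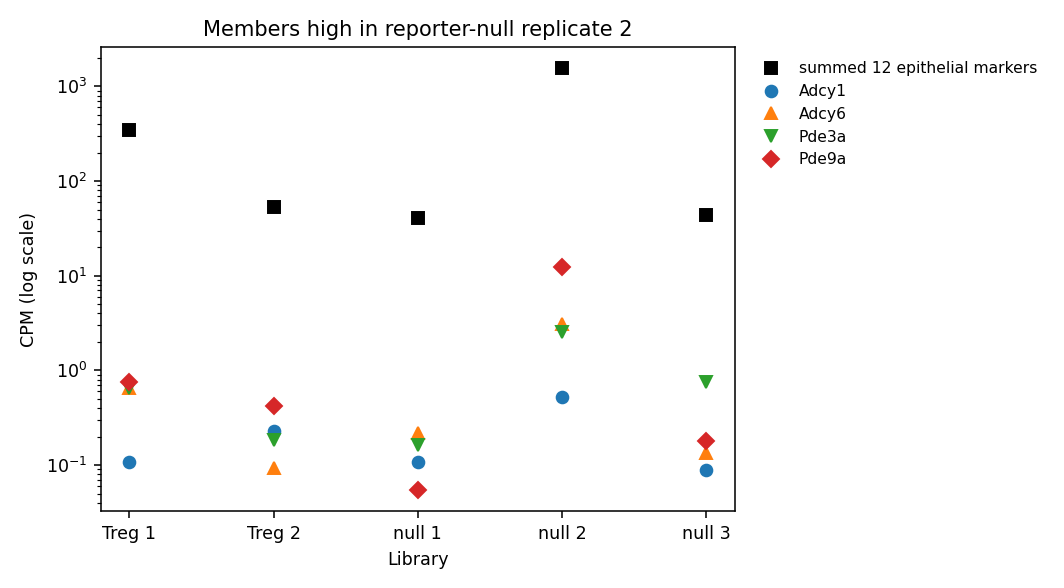
CPM (log axis) in each library of the 4 members more than 2 times higher in reporter-null replicate 2 than in any other library, with the summed CPM of 12 epithelial markers as black squares. The marker sum is 1545 CPM in that library and 348 CPM in Treg replicate 1, and Pde9a reaches 12.3 CPM in the former only.

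Cyclic AMP is made by 9 membrane cyclases and the soluble Adcy10. Adcy7, a cyclase of blood cells, had the highest level per length among the 10 in both groups, with 28.7 CPM per kb in Treg and 57.9 CPM per kb in reporter-null cells. Its level was 167 and 219 CPM for Treg, and 423, 363 and 385 CPM for reporter-null libraries. The groups did not overlap, and Adcy7 rose 2.02-fold (log2 fold change 1.011, SE 0.154, adjusted p = 0.0102). The call was lost without Treg replicate 1 (0.83, adjusted p = 0.1) or reporter-null replicate 1 (0.95, adjusted p = 0.0559), and its adjusted p spanned 5.43e-09 to 0.142 over 15 alternatives. Adcy3 ranked next, at 44.5 and 59.0 against 62.1, 68.4 and 55.2 CPM, and its groups overlapped (0.26, SE 0.164, adjusted p = 0.426). Adcy9 was 7.03 ± 0.192 CPM for Treg and 6.258 ± 1.014 CPM for reporter-null cells (-0.17, SE 0.275, adjusted p = 0.792). Adcy4 was low, with 8 and 11 counts in the Treg libraries and 40, 33 and 64 in the reporter-null libraries (2.21, SE 0.591, adjusted p = 0.0716). It passed without reporter-null replicate 2 (2.38, adjusted p = 0.0252), and its adjusted p spanned 0.00832 to 0.319 over 15 alternatives. Of the other 6 cyclases, Adcy1 and Adcy5 did not pass the filter, and Adcy2, Adcy6, Adcy8 and Adcy10 had adjusted p from 0.636 to 0.996.

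PKA is a tetramer of 2 catalytic and 2 regulatory subunits. Of its 6 genes 1 was called, beside 8.79% of all genes tested, and so few genes cannot be told apart from that share. Prkacb, the catalytic beta subunit, was 82.0 and 89.2 CPM for Treg, and 206, 199 and 197 CPM for reporter-null libraries. Replicates lay within 1.09 times of each other in each group, and Prkacb rose 2.34-fold (log2 fold change 1.23, SE 0.110, adjusted p = 0.0015), a call that held without any single library. Prkaca, the catalytic alpha subunit, was 66.2 and 68.2 against 96.5, 101.6 and 77.9 CPM (0.45, SE 0.144, adjusted p = 0.116), and passed without reporter-null replicate 3 (0.56, adjusted p = 0.0343, range 0.0343 to 0.426 over 15 alternatives). Per length, Prkaca was the higher of the pair in both groups, at 27.0 and 9.76 CPM per kb in Treg and 37.0 and 22.9 CPM per kb in reporter-null cells. In CPM the order was the reverse. Prkaca and Prkacb had means of 67.2 and 85.6 CPM in Treg and of 92.0 and 200.6 CPM in reporter-null cells. The order per length therefore rests on their merged exon lengths, 2488 and 8772 bases, which depend on the annotation. Prkar1a, the regulatory subunit of type I PKA, had the highest level per length of the 6 genes, 279 and 327 CPM per kb, and was 1205 ± 21.9 and 1414 ± 107 CPM (0.23, SE 0.129, adjusted p = 0.362). Prkar2a was 17.4 and 26.4 against 35.3, 44.1 and 31.0 CPM (0.75, SE 0.238, adjusted p = 0.117). Prkar2b, at 4.44 ± 0.326 and 8.996 ± 2.62 CPM, and Prkar1b, at 1.72 ± 0.336 and 0.658 ± 0.191 CPM, were low and not called. Of the 4 regulatory genes edgeR called none, 2 had an unadjusted p under 0.05, DESeq2 called Prkar2a and limma-voom called 0.

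The anchoring proteins were the largest class after the phosphodiesterases in number of genes. Of 16, 13 were tested, and 1 was higher and none lower by edgeR. That is 7.69% called, near the 8.79% called over all genes tested. The median log2 fold change was 0.07. On the lower side 1, Akap6, had an unadjusted p under 0.05 and was called by DESeq2, and limma-voom called 0. Akap1, which anchors PKA at the outer mitochondrial membrane, was 4.23 and 2.17 CPM for Treg, and 8.77, 17.95 and 9.97 CPM for reporter-null libraries. The libraries did not overlap, but each group spanned about the same ratio, 1.95 and 2.05 times. The log2 fold change was 1.93 (SE 0.457, adjusted p = 0.0489), and it was 2.49 without Treg replicate 1 (adjusted p = 0.119) and 1.53 without Treg replicate 2 (adjusted p = 0.229). The call was lost also without reporter-null replicate 1 (adjusted p = 0.0974) or 3 (adjusted p = 0.0814), and its adjusted p spanned 3.42e-06 to 0.256 over 15 alternatives. Akap1 was called in 6 of those 15 alternatives. Its call was lost also with other scaling factors, with limma-voom and with counts thinned to the shallowest library. The highest Akap1 value was in reporter-null replicate 2, the library with the highest epithelial marker sum, and among Treg libraries in replicate 1, which had the higher sum. In the other libraries, a choice made after seeing the data, Akap1 stood at 2.17 CPM for Treg and 8.77 and 9.97 CPM for reporter-null cells. The part of epithelial RNA in the Akap1 values was not tested.

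Akap13, which anchors PKA, had the highest level per length of the class and was 784 and 815 against 872, 991 and 1008 CPM (log2 fold change 0.26, SE 0.125, adjusted p = 0.285). Akap9, at the centrosome and Golgi, was 106 and 100.2 against 82.0, 88.5 and 94.2 CPM (-0.22, SE 0.113, adjusted p = 0.315). Akap8, in the nucleus, was 135.52 and 158.37 against 170.55, 158.45 and 161.75 CPM (0.15, SE 0.118, adjusted p = 0.519). In these 3 genes the groups did not overlap, which held for 40.8% of all genes tested. For Akap8 the nearest libraries were almost equal, at 158.37 and 158.45 CPM. None of the 3 was called. Akap8l stood at 173.3 ± 10.6 and 173.1 ± 11.01 CPM, and Akap10 at 71.7 ± 8.19 and 75.1 ± 4.21 CPM. Akap11 was 24.9 and 26.5 against 33.1, 36.7 and 36.7 CPM (0.47, SE 0.135, adjusted p = 0.0908). Akap6, best known from muscle, was low and went the other way, at 2.44 and 3.98 against 0.921, 1.2 and 0.979 CPM (-1.63, SE 0.489, adjusted p = 0.0985). Akap12, Akap17b, Akap5, Akap7 and Akap14 had group means from 0.399 to 21.3 CPM and adjusted p from 0.122 to 0.552.

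At the nuclear end, Crem fell, and of the other 4 genes edgeR, DESeq2 and limma-voom called 0, with 0 at an unadjusted p under 0.05. Crem encodes activators as well as the inducible repressor ICER, which the counts per symbol do not separate. Its level was 514 and 478 CPM for Treg, and 258, 306 and 284 CPM for reporter-null libraries. The groups did not overlap, and Crem fell 1.75-fold (log2 fold change -0.81, SE 0.119, adjusted p = 0.00898). The call was lost without either Treg library (adjusted p = 0.103 and 0.0676 for replicates 1 and 2) or reporter-null replicate 1 (0.0596), and its adjusted p spanned 1.12e-09 to 0.129 over 15 alternatives. Creb1 was 59.0 and 75.4 against 81.8, 77.7 and 94.6 CPM (0.33, SE 0.154, adjusted p = 0.265). The coactivators Crtc2 and Crtc3 were 122.9 ± 4.72 and 129.3 ± 12.3 CPM (0.07, SE 0.123, adjusted p = 0.799) and 90.5 ± 1.36 and 88.3 ± 3.80 CPM (-0.04, SE 0.106, adjusted p = 0.889), and Crtc1 was 26.5 ± 3.92 and 33.2 ± 1.57 CPM. Per length, Crem was the highest of the 5 in both groups, at 84.2 and 48.0 CPM per kb.

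**Figure D5:**
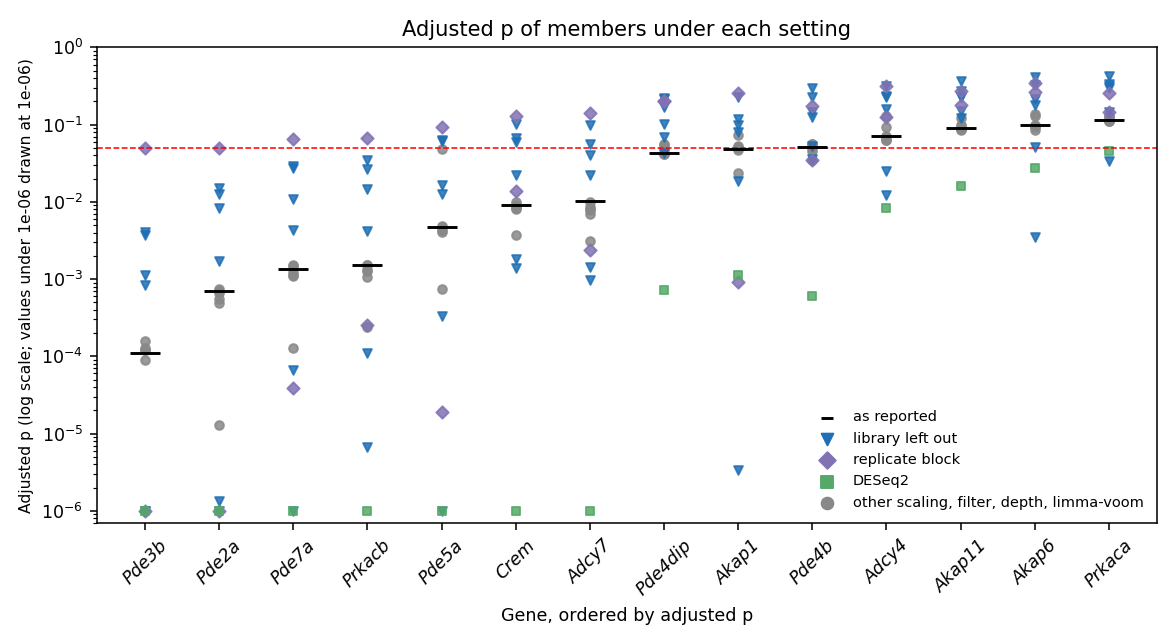
Adjusted p (log axis, values under 1e-06 drawn at 1e-06) of the 9 called members and the 5 next in order, as reported (black bar) and under each alternative, with the threshold of 0.05 as a dashed line. Pde3b and Pde2a stay below the line at every point. Pde4dip and Akap1 cross it when single libraries are left out and under other alternatives, among them limma-voom.

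CREB binds the cyclic AMP response element, spelled TGACGTCA, and its half-site TGACG. Both were sought on both strands in the 250 bases before each RefSeq transcript start (GRCm38.p6), where windows were at hand for 50 of the 63 members, 93 windows in all. Pde3b, Pde7a and Crem were not among the 50. The half-site lies within the full element. Of these windows 1, at Prkar1a, held the full element (1.08%), and 1.55% of all 32851 windows did. The half-site was in 14 of the 93 (15.1%), and in 17.8% of all windows. Among the called members it was in 2 of 17 windows (11.8%). By gene these were 2 of 6 (33.3%), Adcy7 and Prkacb, beside 19.8% of all genes with a window. These shares by gene are not alike. The 6 called genes had 17 windows and all 27025 genes had 32851, so each called gene gave more chances of a match. The Adcy7 and Prkacb windows with the half-site are shown with that of Prkar1a, with the motif in capitals (CGTCA where it reads on the other strand).
Adcy7, chr8:88282742-88282991, + strand: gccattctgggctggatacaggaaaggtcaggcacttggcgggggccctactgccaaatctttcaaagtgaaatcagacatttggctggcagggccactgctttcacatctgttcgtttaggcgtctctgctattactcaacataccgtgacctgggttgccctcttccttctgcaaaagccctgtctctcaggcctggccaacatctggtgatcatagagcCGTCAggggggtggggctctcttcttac
Prkacb, chr3:146812947-146813196, - strand: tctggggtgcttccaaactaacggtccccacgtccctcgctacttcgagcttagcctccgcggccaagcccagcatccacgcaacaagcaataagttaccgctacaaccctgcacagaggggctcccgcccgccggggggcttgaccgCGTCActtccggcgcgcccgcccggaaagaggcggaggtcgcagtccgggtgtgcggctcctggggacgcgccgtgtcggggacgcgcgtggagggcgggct
Prkar1a, chr11:109650699-109650948, + strand: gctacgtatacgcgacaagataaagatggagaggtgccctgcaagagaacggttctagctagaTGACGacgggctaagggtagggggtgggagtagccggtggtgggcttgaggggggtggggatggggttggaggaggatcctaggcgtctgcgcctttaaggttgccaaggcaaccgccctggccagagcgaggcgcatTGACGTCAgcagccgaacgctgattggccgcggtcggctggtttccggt
The half-site began 28 bases before the start in Adcy7 and 102 in Prkacb, and the full element of Prkar1a began 49 bases before it, with a further half-site at 187. Adcy7 and Prkacb were called higher and Prkar1a was not called. The motif GTAAACA of forkhead factors, also on both strands, was in 4 of the 93 windows (4.30%), at Akap14, Pde1b, Pde1c and Pde4c, and in 3.17% of all windows. Of those 4 genes edgeR called none, 1 had an unadjusted p under 0.05, and DESeq2 and limma-voom called 0. A match is a description of the letters and not a site that was shown to be bound.

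Genes of the same pathway outside these symbols were taken from 9 lists, of which 96 genes were tested, with 6 higher, 3 lower and a median log2 fold change of -0.01. The 9 called of 96 are near the 8.79% called over all genes tested. Of the receptors that raise cyclic AMP through the G protein Gs, 3 of 16 tested were higher, beside 4.07% of all genes tested, and 8 had a positive and 8 a negative log2 fold change (median 0.06). Vipr2, a receptor for vasoactive intestinal peptide, had no count in either Treg library and 10.8, 13.2 and 9.66 CPM for reporter-null libraries. Set against 3 counts for the Treg libraries together, Vipr2 was at least 149.5-fold higher (adjusted p = 0.000706), a limit that covers counting error only. Glp1r encodes the glucagon-like peptide receptor and had 0.0543 and 0 CPM for Treg, and 15.2, 20.4 and 15.9 CPM for reporter-null libraries (adjusted p = 0.000706). Ptger4, a receptor for prostaglandin E, was 160.2 and 216 against 282, 346 and 315 CPM (log2 fold change 0.74, SE 0.166, adjusted p = 0.0406). Its call was lost without either Treg library (adjusted p = 0.264 and 0.0718 for replicates 1 and 2), reporter-null replicates 1 (0.0968) or 3 (0.0746), and its adjusted p spanned 0.000383 to 0.264 over 15 alternatives. The adenosine receptor Adora2a, named after its values were seen, lay the other way, at 269.1 and 195 against 107, 138 and 77.3 CPM (-1.11, SE 0.265, adjusted p = 0.0598).

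No gene was called by edgeR in 5 of the lists, which were the G protein alpha subunits (6 tested), the PKA inhibitors and kinase partners (4 tested), the Epac factors and other cyclic nucleotide effectors (10 tested), the CREB relatives and coactivators (10 tested) and the salt-inducible kinases with the CRTC phosphatase (6 tested). Of these 36 genes 5 had an unadjusted p under 0.05, DESeq2 called Gnal, Ppp3r1 and Prkx, and limma-voom called 0. Gnas, which encodes the Gs alpha subunit, was 893 ± 22.1 and 875 ± 72.9 CPM. Of 18 anchoring proteins without an Akap symbol, Map2 fell, from 4.07 and 3.33 to 0.379, 0.240 and 0.356 CPM (log2 fold change -3.49, SE 0.526, adjusted p = 0.00981). Its call was lost without either Treg library (adjusted p = 0.108 and 0.0685 for replicates 1 and 2) or reporter-null replicate 1 (0.0591), and its adjusted p spanned 1.2e-06 to 0.162 over 15 alternatives.

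Of 21 genes known as targets of CREB, 1 was higher and 2 lower, beside 4.07% and 4.72% of all genes tested, and 11 had a positive and 10 a negative log2 fold change. Rgs2, which limits signalling by G proteins, fell from 961 and 1011 to 516, 456 and 471 CPM (log2 fold change -1.04, SE 0.116, adjusted p = 0.00331), as did Crem. Fosb rose from 337 and 409 to 779, 915 and 633 CPM (1.06, SE 0.188, adjusted p = 0.0184), a call that did not hold without either Treg library (adjusted p = 0.179 and 0.0933 for replicates 1 and 2) or reporter-null replicate 1 (0.0779), and its adjusted p spanned 1.14e-06 to 0.179 over 15 alternatives. Fosb is also among 16 genes of the response to cell isolation, whose summed level was 25828 and 63378 CPM for Treg, and 70871, 38300 and 61747 CPM for reporter-null libraries, and the part of that response was not tested.

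In the list of cyclic AMP exporters, gap junction subunits and the cyclic GMP arm, 2 of 9 tested genes were higher and 1 lower, beside 8.79% called in either direction over all genes tested. The gap junction gene Gja1, which encodes connexin 43, rose from 2.23 and 6.70 to 80.7, 74.6 and 85.3 CPM (log2 fold change 4.15, SE 0.496, adjusted p = 0.0111). Its call was lost without reporter-null replicate 1 (0.0548), and its adjusted p spanned 1.82e-40 to 0.121 over 15 alternatives. Gjb2, which encodes connexin 26, fell from 17.7 and 21.96 to 3.20, 2.88 and 1.82 CPM (-2.91, SE 0.301, adjusted p = 0.00259). The exporter gene Abcc5 rose from 20.4 and 23.6 to 42.6, 50.1 and 35.1 CPM (0.95, SE 0.188, adjusted p = 0.0268), a call that did not hold without either Treg library (adjusted p = 0.199 and 0.116 for replicates 1 and 2) or reporter-null replicate 1 (0.112), and its adjusted p spanned 0.000329 to 0.199 over 15 alternatives.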

How the data were processed

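The members, gene lists and tests were chosen with earlier results of these data known. Per the labels' protocols, polyadenylated RNA was amplified with SMART-Seq v4 and prepared with KAPA Hyper Prep for paired reads on Illumina HiSeq, with no molecular identifiers named. The authors deposited 1 table of whole-number counts by symbol, not normalised, as its values show. The submitters' processing notes name DESeq. Aligner, build, annotation and strand setting: not given in the sources used here. Overlapping and antisense genes may therefore share reads. Of 24421 rows, 4 had no name (0.0034% to 0.00492% of a library) and were left out.

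Genes kept by filterByExpr (minimum count 10, minimum total 15) were scaled with TMM factors and compared by the robust quasi-likelihood test in edgeR 4.0.16 (R 4.3.3), with Benjamini-Hochberg adjustment over 14164 genes and a threshold of 0.05. The standard error (SE) is the absolute log2 fold change over the root of F. The steps were tested on simulated data. Alternatives used RLE or upper quartile factors, DESeq2 1.42.0, limma-voom (3.58.1), no filter, a CPM of 1 in 2 libraries, thinned counts, a threshold of 0.01, each library left out and a block by replicate number. Leaving out Treg replicate 1 together with reporter-null replicate 2, and naming Pde7b, Pde9a, Adcy6, Pde3a and Adora2a, were chosen after seeing the data. Other named genes were every called member, a set of T cell genes, the 5 members next in order and up to 4 called genes per pathway list, and remaining members are given briefly. Likeness of patterns was not computed over only 5 libraries. Replicates differed by more than sampling noise (chi-square 23.1 to 98.1 per degree of freedom). Lengths are merged exons of GENCODE M21 (63 of 63 members), and promoter windows are from RefSeq (GRCm38.p6).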

Additional observations from a re-analysis of the deposited data

How the results depend on the processing

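The counts of called genes depended on the library set and the tool. For all genes tested, with 577 higher and 668 lower, leaving out 1 library gave 146 to 926 higher and 192 to 1109 lower. For the members, with 7 higher and 2 lower, it gave 3 to 11 and 1 to 2. For the other pathway genes, with 6 higher and 3 lower, it gave 2 to 10 and 2 to 10. Where a Treg library is left out, the lone one is assumed to vary like the reporter-null libraries. DESeq2 called 1200 and 1123 of all genes, 14 and 3 members and 12 and 11 other pathway genes. A threshold of 0.01 gave 208 and 281 genes, 4 higher members and 2 higher pathway genes. Lower pathway genes numbered 6 with limma-voom, 5 with the CPM filter, 6 with thinned counts, and 8 with the replicate block by description numbers. Leaving out Treg replicate 1 together with reporter-null replicate 2, chosen after seeing the data, gave 944 and 1208 genes, 9 and 3 members and 8 and 12 pathway genes. The cause was not tested, except that a stricter threshold calls fewer genes by construction.

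The titles and the descriptions number the libraries differently, and neither says that a number marks an animal or a batch. Deviations from the group mean correlated at -0.511 and -0.602 for libraries that share a title number and at 0.602 and 0.481 for those that share a description number, across genes, which are not independent replicates. With only 2 Treg libraries these deviations mirror each other. The replicate block by title numbers left 12 genes higher and 12 lower, 1 member in each direction (Pde3b and Pde2a), and 0 and 0 other pathway genes, and the replicate block by description numbers gave 719 and 680 genes and 8 and 2 members.

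The 40 single genes were followed over 15 alternatives and the stricter threshold, except that Pde9a and Adcy6 had 12 alternatives and Pde3a 14. In the rest those genes had no adjusted p. A sign turned in 4 instances, each far from the threshold: Pde4d without Treg replicate 2 (-0.059), Crtc2 without reporter-null replicate 2 (-0.0032) and, without both libraries named above, Crtc2 (-0.0268) and Adcy3 (-0.0028). With libraries left out, the log2 fold change ranged from -0.059 to 0.278 for Pde4d, from -0.0028 to 0.479 for Adcy3 and from -0.0268 to 0.142 for Crtc2. In 549 instances the direction and the side of the threshold were kept, in 61 a call was lost and in 19 one was gained. Depth limits what can be seen for members such as Adcy8 and Pde6b, with 52 and 54 counts in all.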

Other observations

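Several members had few or no counts. Akap2 had no count in any library. Akap3 and Akap4, anchoring proteins of the sperm tail, had 4 and 3 counts over all 5 libraries. Of the photoreceptor phosphodiesterase subunits, Pde6h had 1 count, Pde6g 2 and Pde6c 12, while Pde6a was 4.28 ± 0.167 CPM in Treg cells (SD, n = 2) and 4.33 ± 1.07 CPM for reporter-null cells (SD, n = 3). The soluble cyclase Adcy10 had 18 counts in the Treg libraries and 28 in the reporter-null libraries, and Adcy5 had 17 and 25. Of these members only Pde6a and Adcy10 passed the filter and were tested, and edgeR called neither (adjusted p = 0.986 and 0.996). Adcy10 had only 46 counts in all, and its SE was 0.841. The others allow no comparison at this depth.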
